A study of Mus musculus with 9 samples.

Results

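The comparison described here sets sebaceous gland (SG) against interfollicular epidermis (IFE) of mouse tail skin, across all genes measured. Its members are the 3 arrays titled as sebaceous glands and the 3 titled as interfollicular epidermis, chosen by title alone, 6 of the 9 arrays of the series. The remaining 3 arrays are of hair follicle (HF) and are used only for reference and for the shared estimate of spread. All 9 samples came from the tail epidermis of adult female wild-type mice of a mixed C57BL6/CBA background, with no transgene and no treatment, matched for age and sex. Each SG sample pooled glands that had been dissected by hand, so an array stands for a pool and not for an animal. The labels call the samples biological replicates without naming the animals. The p-values therefore rest on the spread between samples within groups, estimated over all 9 arrays, and how far that spread reflects animals is unknown.

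A sebaceous gland sits beside the hair follicle. Its cells, the sebocytes, arise from a basal layer, fill with wax esters, triglycerides and cholesterol esters, and burst to release sebum. The interfollicular epidermis lies between the follicles: its basal keratinocytes move up through spinous and granular layers and end as cornified cells that are cross-linked, embedded in ceramide-rich lipid and shed. In tail skin it forms scales and interscales, which differ in their keratins. Both tissues use fatty acids in bulk, the gland for secreted neutral lipid and the epidermis for the sphingolipids of its barrier.

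Each gene's level is the median log2 signal of its probe sets (groups of probes that mostly lie in 1 exon), so a difference of 1 is a 2-fold difference. Differences are SG minus IFE, given ± the SE of a limma fit over all 9 arrays, with 3 arrays in each group and p-values adjusted by Benjamini-Hochberg over 14507 genes. A gene counted as changed, and is said to have risen or fallen in SG, at an adjusted p under 0.05 and a difference of at least 1 in size. Where values are listed for a group they are those of replicates 1, 2 and 3, in that order. HF values are given for some genes only, and a rise against IFE does not by itself set SG apart from HF.

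The array names in the descriptions gave another compartment than the title for 9 of 9 arrays, and the titles were followed. The mean level of 16 sebocyte markers was 10.54, 10.55 and 10.13 on the arrays titled SG and 7.29, 7.62 and 7.70 on those titled IFE. The mean of 31 cornified envelope and granular layer genes was 8.34, 8.30 and 8.50 in SG and 10.17, 10.17 and 9.84 in IFE. Neither list overlapped between the groups, and both lay on the side that the titles give. The lists were chosen with earlier results of these data known, so they are not an independent check of the titles. SG replicate 3 stood apart in its hair keratins: the mean over 22 genes of the hair shaft and inner root sheath was 7.41, 7.70 and 9.89 in SG, 7.63 to 7.76 in IFE and 10.96 to 11.48 in HF. List counts that moved by over 1.5 times without that array are given beside the list. Correlations of log2 signal across genes, which are not independent replicates, ran from 0.921 to 0.942 among SG arrays, from 0.952 to 0.977 among IFE arrays and from 0.846 to 0.887 between the groups. The median deposited signal of an array was 175.9 to 198.3 in SG and 193.7 to 234.2 in IFE.

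**Figure D1:**
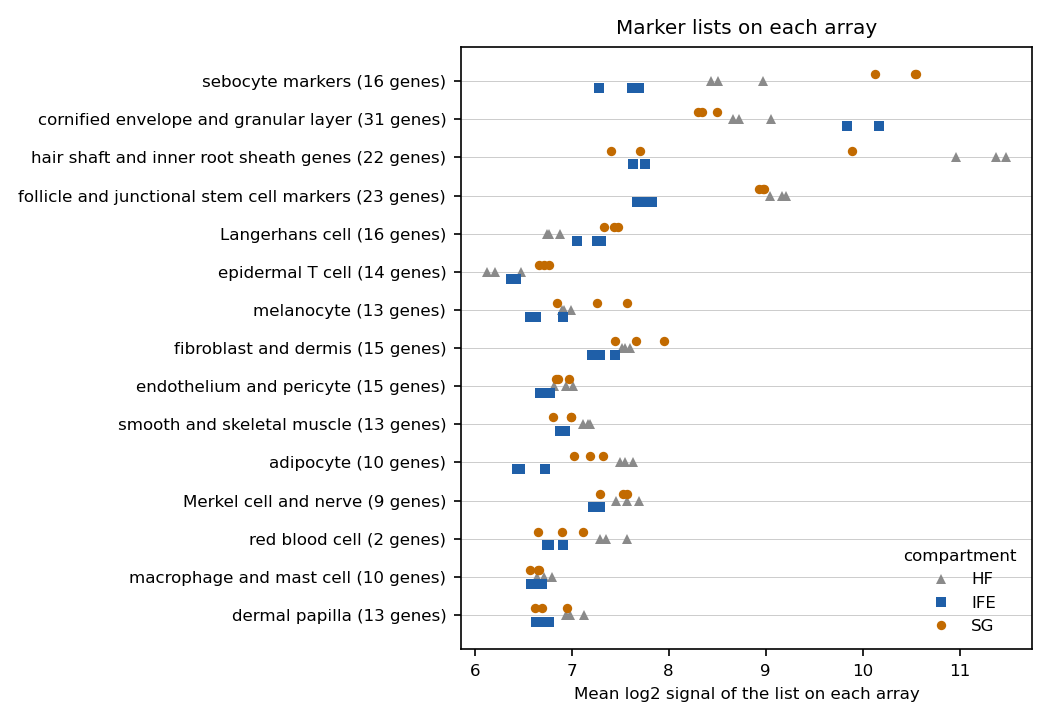
Mean log2 signal (horizontal axis) of 4 epidermal gene lists and of marker lists for other cell types, with a symbol for each of the 9 arrays: circles SG, squares IFE, triangles HF. The sebocyte and cornified lists separate SG from IFE, the hair list of SG replicate 3 lies at 9.89 against 7.41 and 7.70 on the other SG arrays, and the largest shift among the lists of other cell types is that of the adipocyte list, at 7.03 to 7.32 in SG and 6.43 to 6.72 in IFE.

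Between the gland and the epidermis 1377 of 14507 genes changed, 9.49% of those tested. Of these, 368 were higher in SG (2.54% of all genes) and 1009 lower (6.96%). The list counts below are to be read beside these shares, and some lie near or below them. The rises were fewer but reached further. Differences of at least 3 were found for 35 genes that rose and 30 that fell, and differences of at least 4 for 16 that rose and 1 that fell. The falls lay mainly among bright genes: of the 3627 genes with the highest mean signal 588 fell and 107 rose, and of the 3627 with the lowest 45 fell and 112 rose. Across the 4 quartiles of mean signal, from dim to bright, the median difference went from 0.15 through 0.02 and -0.17 to -0.38.

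How the arrays were scaled set the split between rises and falls. As deposited, 26.7% of the changed genes were higher in SG and the median difference of all genes was -0.06. After quantile normalization, which gives every array the same distribution, the split was 609 higher and 476 lower (56.1% higher), with a median difference of 0.16. After centring each array on its median it was 645 higher and 572 lower (53% higher), with a median difference of 0.18. Every one of the 368 rises was also called after quantile normalization, as were 476 of the 1009 falls. Because this scaling raised the median difference from -0.06 to 0.16, these counts do not rank rises above falls in reliability. List counts that differ by over 1.5 times after quantile normalization are given here or beside the list. The rises then numbered 7 instead of 4 in fatty acid uptake, 10 instead of 6 among steroid enzymes, 6 instead of 3 among retinoid genes, 4 instead of 2 among FGF and among antimicrobial genes, 3 instead of 1 among Hox genes, 3 instead of 0 among cytokines and 1 instead of 0 among cell cycle genes in limma's fit. Among markers of other cells they numbered 4 instead of 1 for fibroblasts and 2 instead of 1 for melanocytes. The falls numbered 1 instead of 3 in cholesterol synthesis and in glycolysis and 1 instead of 2 among nuclear receptors, and in limma's fit 0 instead of 3 in BMP and TGF-beta signalling and 0 instead of 1 among glutathione, adipocyte and Merkel cell genes. In all, 151 rises and 314 falls were called in every alternative fit, of 18, in which they were tested.

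**Figure D2:**
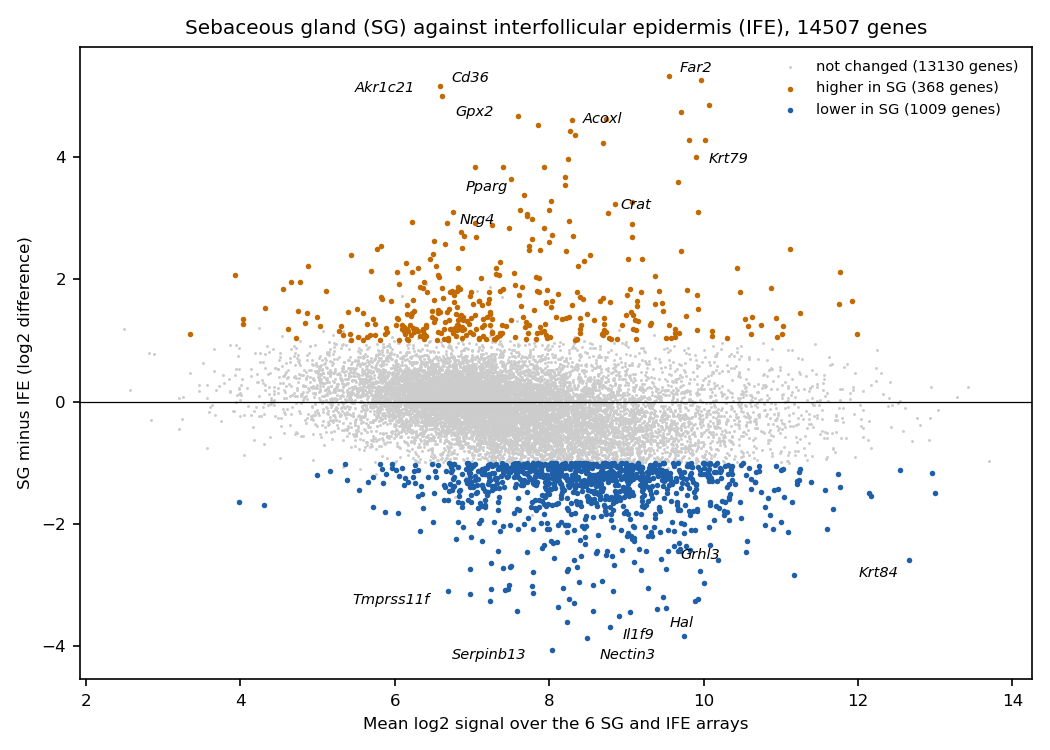
Each point is 1 of 14507 genes, placed by its mean log2 signal over the 6 SG and IFE arrays (horizontal) and its SG minus IFE log2 difference (vertical). The 368 genes higher in SG (orange) reach 5.34, at Far2, and the 1009 lower (blue) reach -4.08, at Serpinb13, with most of the falls at brighter levels.

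The largest rises in SG were mostly enzymes and proteins of lipid handling. Far2, a reductase that turns fatty acyl-CoA into the fatty alcohol of wax esters, stood at 12.12, 12.53 and 12.00 on the SG arrays and 6.26, 7.00 and 7.38 on the IFE arrays, a 40.4-fold difference. Cd36, a fatty acid transporter of the cell surface, stood at 9.55, 9.48 and 8.51 on the SG arrays and 3.74, 3.89 and 4.39 on the IFE arrays (5.17 ± 0.31, adjusted p = 2.18e-06). All 21 of its 21 probe sets were higher on each SG array than on each IFE array. Acoxl, a relative of the peroxisomal acyl-CoA oxidases, was 21.5-fold higher, at 10.95, 10.94 and 9.57 on the SG arrays and 5.75, 6.41 and 6.01 on the IFE arrays (4.43 ± 0.33, adjusted p = 8.11e-06). In all 3 genes the lowest SG array lay more than 3 log2 units above the highest IFE array, and the HF means lay between, at 9.40 ± 0.42, 6.42 ± 0.46 and 7.61 ± 0.27 (SD, n = 3).

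Among the 15 largest rises with at least 3 probe sets and no overlap between the groups, the remaining lipid genes were Mgll, a monoglyceride lipase (4.74 ± 0.22), Soat1, which esterifies cholesterol (4.63 ± 0.34), Cidea and Plin2, both proteins of the lipid droplet surface (4.61 ± 0.21 and 4.29 ± 0.32), the elongase Elovl3 (4.37 ± 0.24), and Fa2h, which hydroxylates fatty acids (4.87 ± 0.35). The steroid dehydrogenase Hsd3b6 (4.52 ± 0.31), the aldo-keto reductase Akr1c21 (32-fold) and the cytochrome P450 Cyp2f2 (4.24 ± 0.28) act on steroids or foreign compounds. The other members were the protease inhibitor Serpina3b (5.27 ± 0.47), the beta-defensin Defb6 (4.29 ± 0.28) and Krt79, a keratin of the duct and upper follicle (4.01 ± 0.35). Defb6 and Krt79 were about as high in HF, at 11.24 ± 0.39 and 11.49 ± 0.19, and neither passed the threshold between SG and HF (0.92 ± 0.28 and 0.42 ± 0.35). The others were higher in SG than in HF by at least 1.59, the value of Elovl3. Between SG and HF 741 of 14507 genes (5.11%) passed the same threshold. Cidea was not called with the brightest probe set of each gene in place of the median.

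PPAR gamma and other nuclear receptors bind the hexamer AGGTCA, usually in pairs, and AP-1, the family of Fos and Jun, binds TGACTCA. The 250 bases before each start site of a gene, from RefSeq on GRCm38.p6, were searched for both hexamer and heptamer on both strands. They are shown for the 2 largest rises holding the hexamer and the 2 largest falls holding the heptamer, 5′ to 3′ on the gene's strand, with matches to the motif named in capitals. This choice was made among genes with at least 3 probe sets, with 1 chromosome left out. For each gene 1 start site with a match is shown. These are the upstream stretches of Cd36 (chromosome 5, chr5:17835897-17836146, minus strand) and Plin2 (chromosome 4, chr4:86670060-86670309, minus strand), then of the protease inhibitor Serpinb7 (chromosome 1, chr1:107422439-107422688, plus strand) and the epidermal differentiation complex gene Prr9 (chromosome 3, chr3:92123948-92124197, minus strand).
Cd36: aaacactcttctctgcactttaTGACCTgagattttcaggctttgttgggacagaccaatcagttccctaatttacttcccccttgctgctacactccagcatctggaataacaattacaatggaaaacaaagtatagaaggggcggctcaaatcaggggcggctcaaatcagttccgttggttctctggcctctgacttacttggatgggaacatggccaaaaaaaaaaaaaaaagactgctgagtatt
Plin2: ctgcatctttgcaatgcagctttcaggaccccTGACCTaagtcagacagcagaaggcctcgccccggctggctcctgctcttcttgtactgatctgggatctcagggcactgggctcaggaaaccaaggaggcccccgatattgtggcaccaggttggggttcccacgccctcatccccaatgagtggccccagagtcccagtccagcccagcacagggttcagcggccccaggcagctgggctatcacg
Serpinb7: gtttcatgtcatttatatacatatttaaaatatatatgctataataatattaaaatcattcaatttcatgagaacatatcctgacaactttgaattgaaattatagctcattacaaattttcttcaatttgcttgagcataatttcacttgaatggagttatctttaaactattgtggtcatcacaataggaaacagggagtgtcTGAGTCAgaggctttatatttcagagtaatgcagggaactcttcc
Prr9: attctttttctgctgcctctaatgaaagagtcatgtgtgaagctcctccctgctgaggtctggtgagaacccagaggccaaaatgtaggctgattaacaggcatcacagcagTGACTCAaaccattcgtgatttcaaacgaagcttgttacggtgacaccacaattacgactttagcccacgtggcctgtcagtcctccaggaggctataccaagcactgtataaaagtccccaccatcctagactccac
A gene was counted where the stretch before any of its start sites held a match. The hexamer was found for 41 of 282 risen genes with an entry (14.5%), 111 of 794 fallen genes (14%) and 1623 of all 11623 genes with an entry (14%). The heptamer was found for 21 of the risen genes (7.45%), 67 of the fallen genes (8.44%) and 546 of all (4.7%). A match describes these letters in this window and is not a measured binding site.

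**Figure D3:**
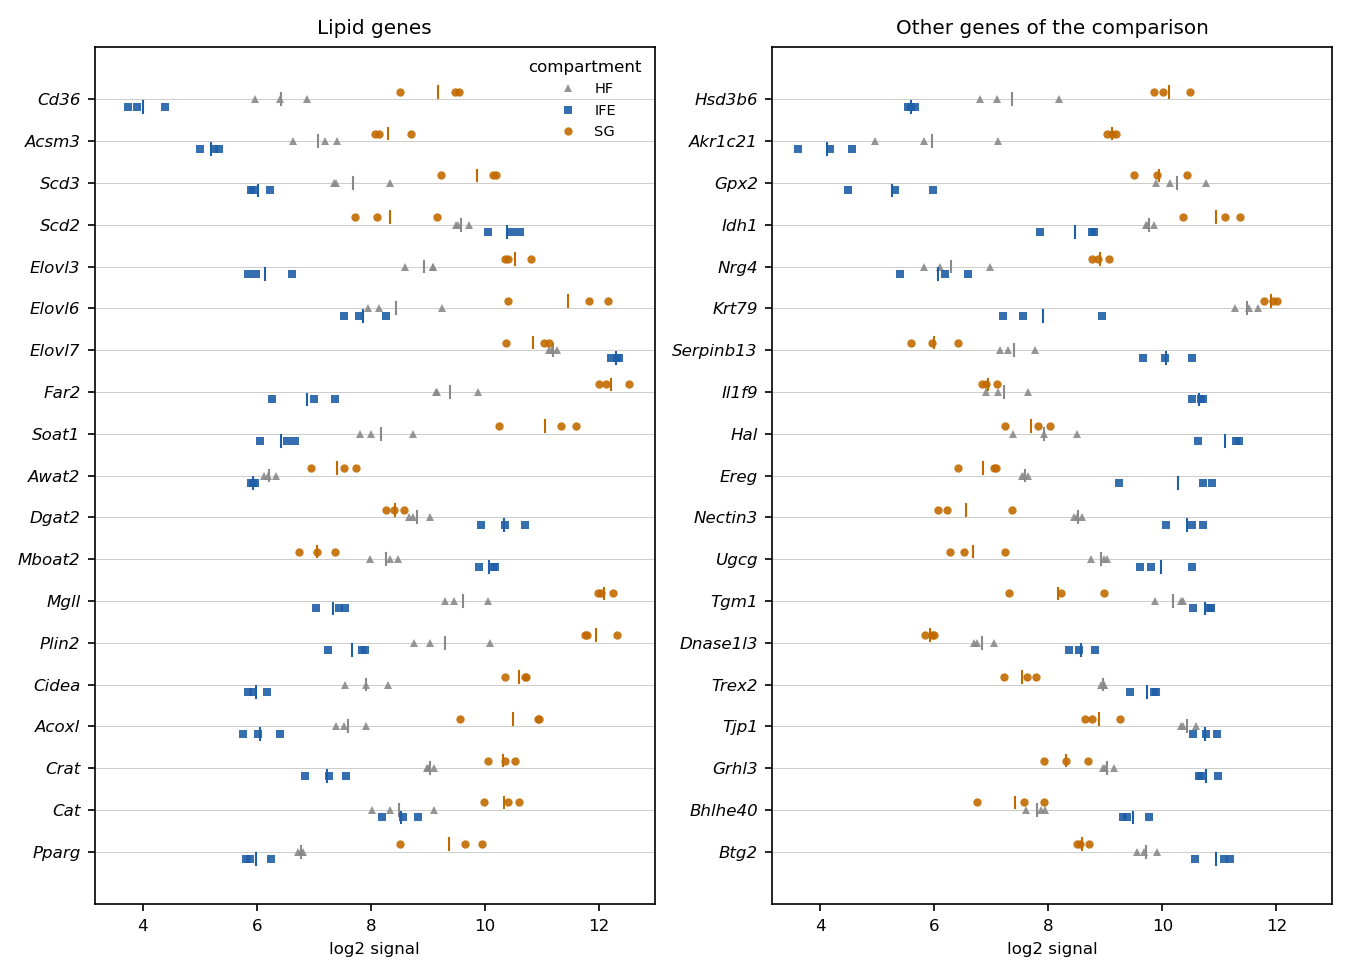
Log2 signal (horizontal axis) of 19 lipid genes (left) and 19 other genes (right) on every array, with circles for SG, squares for IFE, triangles for HF and a tick at each group mean. Far2 lies at 12.00 to 12.53 in SG and 6.26 to 7.38 in IFE, while Scd2, Elovl7, Dgat2 and Mboat2 lie lower in SG than in IFE among the lipid genes.

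In uptake and activation of fatty acids 4 of 18 measured genes rose and 1 fell, with a median difference of 0.60 against -0.06 for all genes, and 2 fell without SG replicate 3. Besides Cd36 these were Acsm3, which activates medium-chain acids (3.11 ± 0.24, adjusted p = 8.11e-06), and the binding proteins Fabp5 (1.38 ± 0.21, adjusted p = 0.000838) and Fabp4. Fabp4 is also an adipocyte gene. It stood at 6.02, 5.83 and 8.41 on the SG arrays and 5.78, 4.60 and 3.49 on the IFE arrays, so that it was highest on SG replicate 3, and it was not called without that array or without IFE replicate 2 or 3. Of its 4 probe sets 0 were higher on every SG array than on every IFE array. Fabp4 was far higher in HF, at 11.76 ± 0.37 (SG minus HF -5.01 ± 0.65, adjusted p = 0.000821). The gene that fell was Acsl1, a long-chain acyl-CoA synthetase, at 8.32, 8.31 and 8.68 on the SG arrays and 10.74, 10.93 and 10.74 on the IFE arrays (-2.37 ± 0.26, adjusted p = 0.000102), with all 22 of its 22 probe sets lower on every SG array. HF lay near SG for Acsl1, at 8.68 ± 0.60.

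Synthesis, desaturation and elongation split within families: 6 of 25 genes rose and 5 fell, with a median difference of 0.58. Acetyl-CoA carboxylase makes the malonyl-CoA from which fatty acids grow. Its isoform Acacb, at the mitochondrion, stood at 9.50, 9.34 and 8.10 on the SG arrays and 6.44, 6.53 and 6.52 on the IFE arrays (2.49 ± 0.30, adjusted p = 0.000178), and 49 of its 50 probe sets separated the groups in that direction. The cytosolic isoform Acaca lay the other way, at 7.00, 7.68 and 7.95 on the SG arrays and 8.46, 8.75 and 8.96 on the IFE arrays (-1.18 ± 0.25, adjusted p = 0.00511). Acaca was not called after quantile normalization or without SG replicate 1, and its brightest probe set was higher in SG (0.54). Fatty acid synthase, Fasn, rose by 1.25 ± 0.24 (adjusted p = 0.00331), and the citrate-splitting enzyme Acly was at 0.60 ± 0.25 (adjusted p = 0.108).

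The stearoyl-CoA desaturases, which introduce the double bond of oleate and palmitoleate, showed the same split. Scd3 stood at 10.15, 9.24 and 10.19 on the SG arrays and 5.90, 6.23 and 5.93 on the IFE arrays (3.84 ± 0.30, adjusted p = 1.06e-05). Scd1 rose by 2.13 ± 0.21 (adjusted p = 4.9e-05) from an already bright level, 10.36, 10.91 and 10.82 on the IFE arrays to 12.69, 13.01 and 12.78 on the SG arrays. Scd2 stood at 8.11, 7.72 and 9.16 on the SG arrays and 10.05, 10.47 and 10.62 on the IFE arrays (-2.05 ± 0.31, adjusted p = 0.000716), and all 7 of its probe sets were lower on every SG array. These copies are near-identical in places, and the probe sets named to 1 symbol cannot show how much signal crosses between them. Among the elongases Elovl3 and Elovl6 rose, Elovl6 at 11.83, 12.16 and 10.40 on the SG arrays and 7.53, 8.27 and 7.79 on the IFE arrays (3.60 ± 0.44, adjusted p = 0.000194), and Elovl7, Elovl1 and Elovl5 fell. Elovl7 stood at 11.13, 11.04 and 10.37 on the SG arrays and 12.36, 12.31 and 12.22 on the IFE arrays (-1.45 ± 0.20, adjusted p = 0.000489). Elovl1 (-1.33) and Elovl5 (-1.18) were not called after quantile normalization, which left 2 falls in the list, nor Elovl5 without SG replicate 2. Elovl4, which makes the ultra-long acids of the skin barrier, was at 0.45 ± 0.22 (adjusted p = 0.163).

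Among enzymes that make or cut wax, sterol and glyceride esters 6 of 24 rose and 6 fell, and the median difference was -0.04. Beside the rises of Far2, Soat1 and Mgll stood Awat2, a wax ester synthase, at 7.74, 6.95 and 7.53 on the SG arrays and 5.90, 5.94 and 5.97 on the IFE arrays (1.46 ± 0.20, adjusted p = 0.000456). Aadac, a lipase of the endoplasmic reticulum, rose by 2.22 ± 0.37 (adjusted p = 0.00148), and Dgat1, which completes triglycerides, by 1.44 ± 0.29 (adjusted p = 0.00448). Dgat2, the other enzyme of that last step and a relative of Awat2, fell, at 8.59, 8.41 and 8.26 on the SG arrays and 9.94, 10.70 and 10.36 on the IFE arrays (-1.92 ± 0.21, adjusted p = 0.000111). The falls were led by Mboat2, which attaches acyl chains to lysophospholipids, at 7.06, 6.75 and 7.38 on the SG arrays and 9.89, 10.14 and 10.17 on the IFE arrays (-3.01 ± 0.20, adjusted p = 4.36e-06), and included Agpat4, an enzyme of phosphatidic acid (-2.04 ± 0.29, adjusted p = 0.000476). The reductase Far1, which shares its reaction with Far2, was at 8.87, 8.71 and 9.06 on the SG arrays and 8.85, 8.93 and 9.01 on the IFE arrays (-0.05 ± 0.17, adjusted p = 0.869). Awat2 was not called with the brightest probe set.

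Lipid droplet coats and lipases gave 4 rises and 4 falls of 21. Cidea, Plin2 and the lipoprotein lipase Lpl (2.94 ± 0.29, adjusted p = 5.07e-05) were higher in SG. The coat genes Plin4 and Plin5 lay at 0.33 ± 0.17 (adjusted p = 0.195) and 0.64 ± 0.15 (adjusted p = 0.00996). Pnpla2, the main triglyceride lipase of most tissues, was at -0.08 ± 0.16 (adjusted p = 0.75), and its activator Abhd5 fell by 1.29 ± 0.15 on the log2 scale (adjusted p = 0.000153). The epidermal lipase Lipm stood at 7.77, 6.68 and 9.02 on the SG arrays and 10.57, 10.77 and 10.39 on the IFE arrays (-2.76 ± 0.43, adjusted p = 0.000877). With quantile normalization 2 of the 4 falls remained, and Abhd5 was not among them.

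Peroxisomes shorten very long acids and hold the oxidases and catalase. Of 28 peroxisomal genes 9 rose and 1 fell, with a median difference of 0.49. Crat, which moves acetyl groups onto carnitine, was the most certain, at 10.35, 10.52 and 10.06 on the SG arrays and 6.85, 7.27 and 7.56 on the IFE arrays (3.08 ± 0.20, adjusted p = 4.36e-06). Catalase, Cat, stood at 10.41, 10.59 and 9.99 on the SG arrays and 8.20, 8.56 and 8.83 on the IFE arrays (1.80 ± 0.28, adjusted p = 0.00088). Pex11a, which drives peroxisome division (1.83 ± 0.28, adjusted p = 0.000751), Pex19, which inserts membrane proteins (1.17 ± 0.19, adjusted p = 0.00115), and the oxidase Acox2 (1.75 ± 0.20, adjusted p = 0.000137) rose too. SG replicate 3 was the lowest SG array for all 5 of these genes, and above each IFE array in all of them. Acox2 was not called with the brightest probe set. The single fall, Agps of ether lipid synthesis (-1.03 ± 0.29, adjusted p = 0.0261), was not called after quantile normalization or without any of SG replicates 1 and 2 and IFE replicates 2 and 3.

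Of 30 nuclear receptors and lipid regulators 2 rose and 2 fell, against 2.54% and 6.96% of all genes. Pparg, the receptor that drives sebocyte differentiation, stood at 9.95, 9.64 and 8.51 on the SG arrays and 6.25, 5.82 and 5.89 on the IFE arrays (3.38 ± 0.30, adjusted p = 2.48e-05), against 6.77 ± 0.04 in HF. Ppara, which governs fatty acid oxidation, rose by 1.13 ± 0.24 (adjusted p = 0.00546) but was not called without SG replicate 1. Srebf1, the regulator of fatty acid synthesis genes, was at 8.32, 8.31 and 8.08 on the SG arrays and 8.43, 8.28 and 8.62 on the IFE arrays (-0.21 ± 0.17, adjusted p = 0.42), and Rxra, the partner of the PPARs, at -0.45 ± 0.22 (adjusted p = 0.169). Mc5r, the melanocortin receptor of sebocytes, stood at 9.63, 9.92 and 8.42 on the SG arrays and 5.44, 5.52 and 5.47 on the IFE arrays (3.85 ± 0.31, adjusted p = 1.31e-05).

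**Figure D4:**
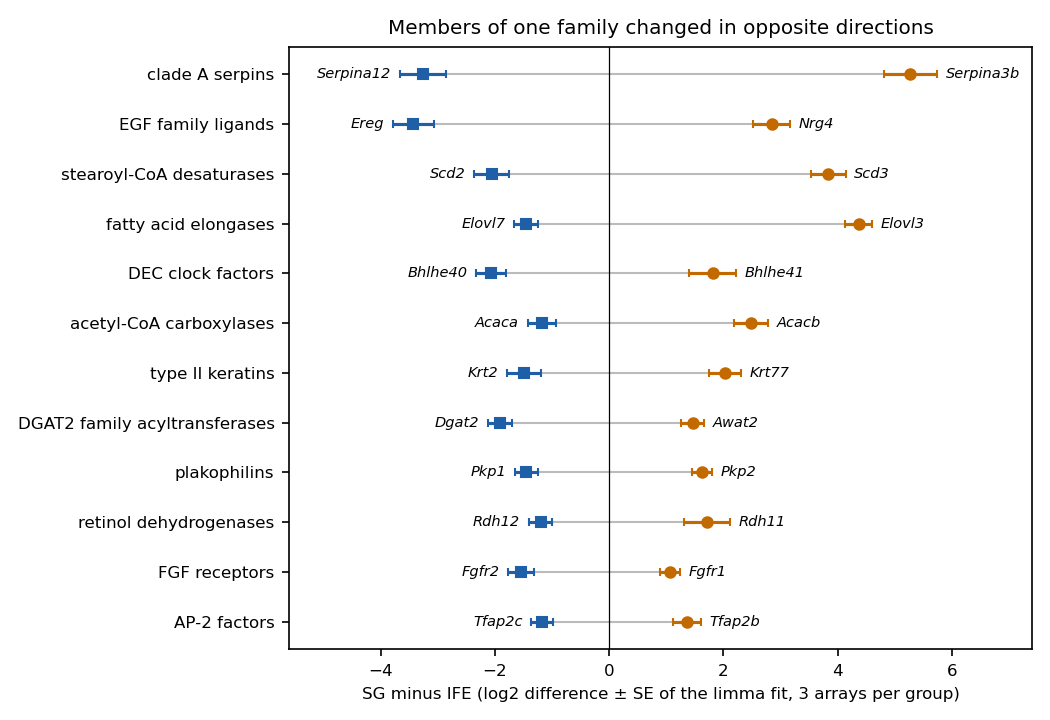
SG minus IFE log2 difference (horizontal axis) of 12 pairs of related genes of which 1 rose (orange circle) and 1 fell (blue square), with bars of ± SE of the limma fit on 3 arrays per group. The gap is widest for Serpina3b and Serpina12 (8.53) and is 5.89 for Scd3 and Scd2. The pairs were chosen because they changed in opposite directions, and families that moved together are not shown. Both members were called in 12 of 18 alternative fits for Acacb and Acaca and in 13 of 18 for Rdh11 and Rdh12. The count was 15 of 18 for Fgfr1 and Fgfr2 and for Tfap2b and Tfap2c.

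Citrate carries acetyl units out of the mitochondrion for fatty acid synthesis. Of 33 genes of glycolysis and the citrate cycle 6 rose and 3 fell. Slc25a1, the citrate carrier, stood at 10.44, 10.53 and 9.84 on the SG arrays and 8.08, 9.11 and 8.77 on the IFE arrays (1.62 ± 0.27, adjusted p = 0.00154). The cytosolic aconitase Aco1 rose by 1.65 ± 0.23 (adjusted p = 0.000456) and Idh1, which makes NADPH from isocitrate in the cytosol, stood at 11.36, 11.10 and 10.37 on the SG arrays and 7.86, 8.81 and 8.76 on the IFE arrays (2.47 ± 0.29, adjusted p = 0.000153). Ldhb, a lactate dehydrogenase subunit read by 1 probe set, rose by 1.60 ± 0.26 (adjusted p = 0.00109). Pfkfb3, which raises the activator of phosphofructokinase, fell by 1.40 ± 0.25 on the log2 scale (adjusted p = 0.00229), and Pfkp, the platelet-type phosphofructokinase, was at -1.27 ± 0.17 (adjusted p = 0.000309), a call that ended after quantile normalization. Of 27 respiratory chain genes 1 rose and 0 fell, with a median difference of 0.37 (0.17 without IFE replicate 1), and 7 rose after quantile normalization. The rise, Atp5c1 of the ATP synthase (1.04 ± 0.22, adjusted p = 0.00541), lost its call when SG replicate 2 or 3 or IFE replicate 1 was left out, and 2 genes rose without SG replicate 1 or IFE replicate 3.

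Steroid enzymes and aldo-keto reductases gave 6 rises and 2 falls of 26, with a median difference of 0.43, and 1 fall with the letter block or without IFE replicate 2 or 3. Hsd3b6 stood at 10.48, 10.02 and 9.85 on the SG arrays and 5.54, 5.59 and 5.66 on the IFE arrays (4.52 ± 0.31, adjusted p = 4.36e-06) and Akr1c21 at 9.03, 9.19 and 9.13 on the SG arrays and 3.61, 4.18 and 4.56 on the IFE arrays. Hsd17b2, which inactivates oestradiol and testosterone, rose by 1.85 ± 0.26 (adjusted p = 0.000502), and the reductases Akr1c19 and Akr1c13 by 2.54 ± 0.46 (adjusted p = 0.00236) and 2.41 ± 0.52 (adjusted p = 0.00677). The Akr1c genes form a cluster of close copies, so their separate values are uncertain. Sult2b1, which sulfates cholesterol in the granular layer, fell, at 7.08, 6.84 and 7.85 on the SG arrays and 8.51, 8.92 and 8.75 on the IFE arrays (-1.47 ± 0.24, adjusted p = 0.00132).

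Retinoid genes were mixed, with 3 rises and 3 falls of 30, against 2.54% and 6.96% of all genes. Rdh1 and Rdh11, retinol dehydrogenases, rose by 1.41 ± 0.24 (adjusted p = 0.00146) and 1.72 ± 0.40 (adjusted p = 0.0097). Dhrs9, another retinol dehydrogenase, stood at 5.88, 5.78 and 6.30 on the SG arrays and 8.43, 8.32 and 8.06 on the IFE arrays (-2.28 ± 0.24, adjusted p = 8.33e-05), and Rdh12 was at -1.20 ± 0.21 (adjusted p = 0.00165). Rdh12 was not called after quantile normalization. In cholesterol synthesis, uptake and export 2 of 24 rose and 3 fell. With the mean of probe sets 0 of these genes rose and 2 fell in limma's fit. Sc5d, a late desaturase of that route, stood at 7.41, 7.37 and 7.81 on the SG arrays and 9.69, 10.36 and 9.89 on the IFE arrays (-2.45 ± 0.21, adjusted p = 1.99e-05), whereas Msmo1 and Nsdhl, which remove methyl groups a few steps earlier, rose by 1.35 ± 0.30 (adjusted p = 0.00709) and 1.23 ± 0.25 (adjusted p = 0.00446). The call of Nsdhl was lost when IFE replicate 1 was left out.

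Among glutathione and xenobiotic genes 6 of 35 rose and 1 fell, with a median difference of 0.27. Gpx2, a glutathione peroxidase of epithelia read by 1 probe set, was 25.7-fold higher in SG, at 9.50, 9.91 and 10.43 on the SG arrays and 4.49, 5.31 and 5.98 on the IFE arrays (4.69 ± 0.36, adjusted p = 9.6e-06). It was about as high in HF (10.26 ± 0.45; SG minus HF -0.32 ± 0.36, adjusted p = 0.654). Gpx4, which removes lipid peroxides, stood at 7.58, 7.57 and 7.64 on the SG arrays and 5.41, 5.77 and 5.39 on the IFE arrays (2.08 ± 0.21, adjusted p = 6.6e-05) on 2 probe sets. Mgst1 and Gsta3, glutathione transferases, rose by 3.11 ± 0.39 (adjusted p = 0.000232) and 2.84 ± 0.45 (adjusted p = 0.00106), each with all its probe sets higher on every SG array.

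The largest falls in SG were led by epidermal protease inhibitors, adhesion and interleukin 1 genes. Serpinb13, an inhibitor of cathepsins, stood at 5.60, 5.97 and 6.42 on the SG arrays and 10.04, 10.52 and 9.66 on the IFE arrays, 16.9-fold higher in IFE (-4.08 ± 0.27, adjusted p = 4.36e-06). Nectin3, an adhesion protein, stood at 6.07, 6.22 and 7.37 on the SG arrays and 10.52, 10.72 and 10.07 on the IFE arrays (-3.88 ± 0.30). Il1f9, the interleukin 36 gamma gene, stood at 6.85, 7.10 and 6.90 on the SG arrays and 10.72, 10.68 and 10.52 on the IFE arrays (-3.69 ± 0.20, adjusted p = 1.18e-06), and its SG and IFE arrays were more than 3 log2 units apart. Hal, which makes the ultraviolet absorber urocanic acid from histidine, stood at 8.03, 7.83 and 7.25 on the SG arrays and 10.63, 11.35 and 11.30 on the IFE arrays (-3.39 ± 0.31, adjusted p = 2.48e-05), with all 23 probe sets lower on every SG array.

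The other members of the 15 largest falls were the inhibitors Wfdc12 (-3.84 ± 0.29), Serpinb7 (-3.51 ± 0.36) and Serpina12 (-3.26 ± 0.40), the growth factor Ereg (-3.43 ± 0.36), the glucosylceramide synthase Ugcg (-3.30 ± 0.28), the membrane serine protease Tmprss11f (-3.11 ± 0.42), the microtubule protein Map2 (-3.10 ± 0.26), Prr9 (-3.20 ± 0.37), the secretoglobin Scgb1a1 (-3.24 ± 0.53), Ly6m (-3.37 ± 0.32) and Tmem45a2 (-3.36 ± 0.46). For 8 of the 15, HF lay near SG: for Ly6m, Hal, Scgb1a1, Tmem45a2, Serpina12, Serpinb7, Il1f9 and Wfdc12 the SG minus HF difference lay between -0.48 (Wfdc12) and 0.66 (Tmem45a2), and none of the 8 passed the threshold between SG and HF. Serpinb13 (-1.41 ± 0.27), Nectin3 (-1.97 ± 0.30), Ugcg (-2.24 ± 0.28), Tmprss11f (-2.41 ± 0.42) and Prr9 were lower in SG than in HF past that threshold. Prr9 had the largest of these differences, at 11.51 ± 0.39 in HF, above the SG arrays at 7.14, 7.60 and 8.89 (SG minus HF -3.64 ± 0.37, adjusted p = 0.000288). Nectin3 and Serpinb7 were not called with the brightest probe set, which was 0.20 higher in SG for Serpinb7.

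Of 31 cornified envelope and granular layer genes 20 fell and 1 rose, against 6.96% and 2.54% of all genes, and the median difference was -1.94. After quantile normalization 18 fell. Cnfn, cornifelin, stood at 8.42, 8.39 and 8.67 on the SG arrays and 10.90, 10.95 and 10.89 on the IFE arrays (-2.42 ± 0.16, adjusted p = 4.36e-06). Of the late envelope proteins, close copies in a cluster, Lce1c lay at -3.61 ± 0.33 (adjusted p = 3.17e-05) and Lce1l at -3.01 ± 0.29 (adjusted p = 4.57e-05). Tgm1, the transglutaminase that cross-links the envelope, stood at 8.22, 7.31 and 8.98 on the SG arrays and 10.54, 10.83 and 10.85 on the IFE arrays (-2.57 ± 0.33, adjusted p = 0.000293), and Tgm3 fell by 1.94 ± 0.17 on the log2 scale (adjusted p = 2.46e-05). The plaque protein Ppl lay at -1.93 ± 0.21 (adjusted p = 0.000113) with all 23 probe sets lower on every SG array, and loricrin, Lor, the main envelope protein, at -1.64 ± 0.23 (adjusted p = 0.000476). Within the small proline-rich genes, read by 1 probe set each and similar in sequence, Sprr4 rose at 9.30, 9.70 and 10.23 on the SG arrays and 7.14, 6.85 and 6.36 on the IFE arrays and Sprr2d fell at 9.15, 7.83 and 7.95 on the SG arrays and 11.79, 11.94 and 10.90 on the IFE arrays. Sprr4 was higher in HF than in SG, at 10.78 ± 0.19 (SG minus HF -1.035 ± 0.26, adjusted p = 0.026).

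**Figure D5:**
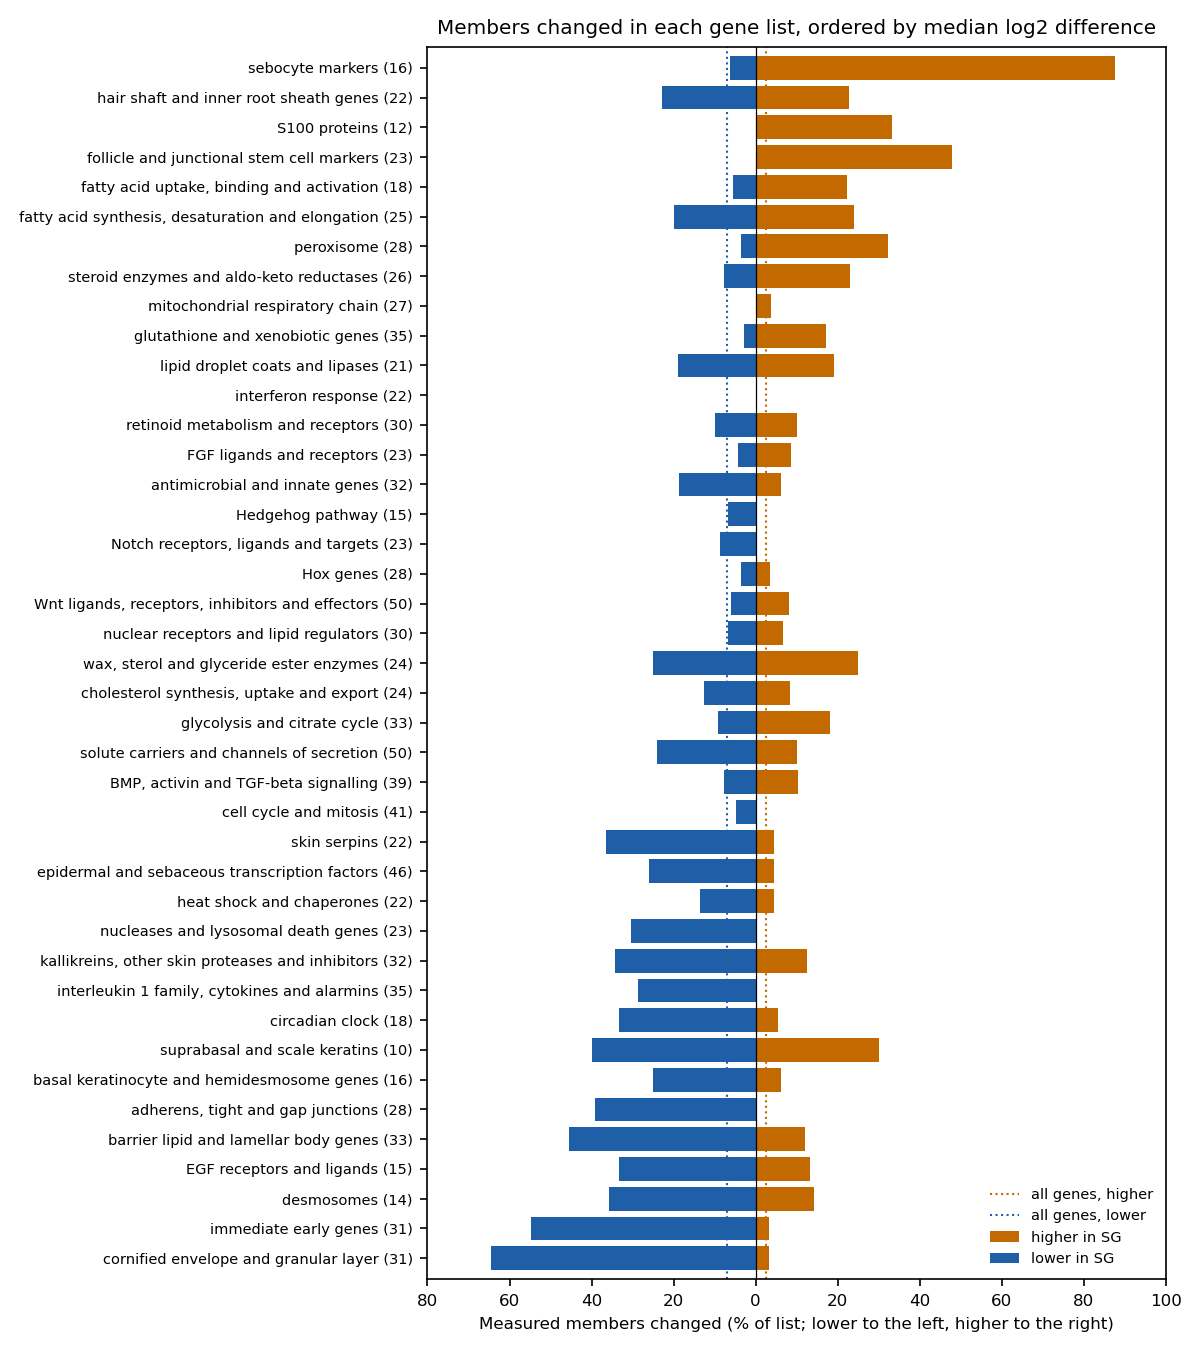
Share of the measured members (percent, list size in brackets) that rose in SG (orange, to the right) or fell (blue, to the left) in 41 gene lists, ordered by median difference, with dotted lines at the shares of all genes, 2.54% and 6.96%. Sebocyte markers lie at the top with 14 of 16 higher, and cornified envelope genes at the bottom with 20 of 31 lower.

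Keratins of the suprabasal layers and tail scales split, with 3 rises and 4 falls of 10. Krt84, a scale keratin of tail skin, stood at 11.02, 10.94 and 12.13 on the SG arrays and 13.99, 14.08 and 13.80 on the IFE arrays (-2.60 ± 0.32, adjusted p = 0.000203), and Krt2, of the spinous layer, at 12.09, 12.50 and 12.17 on the SG arrays and 13.44, 14.02 and 13.77 on the IFE arrays (-1.49 ± 0.30, adjusted p = 0.00404). Krt6a, of the follicle's companion layer, stood at 11.33, 11.19 and 12.05 on the SG arrays and 9.17, 9.41 and 9.43 on the IFE arrays (2.18 ± 0.22, adjusted p = 5.32e-05), against 12.40 ± 0.03 in HF, and Krt77 rose by 2.04 ± 0.28 (adjusted p = 0.000429). Krt10, the main keratin of the spinous layer, was at 12.88, 13.41 and 13.34 on the SG arrays and 14.21, 14.26 and 14.08 on the IFE arrays, a difference just under the threshold (-0.97 ± 0.18, adjusted p = 0.00281) and past it without SG replicate 2 or 3 or IFE replicate 3. Of 16 basal and hemidesmosome genes 1 rose and 4 fell. The integrin subunits Itga6, which anchors basal cells, and Itga2, a collagen receptor, fell by 1.71 ± 0.24 (adjusted p = 0.000488) and 1.66 ± 0.21 (adjusted p = 0.000272) on the log2 scale. The basal keratins Krt5 and Krt14 were at -0.10 ± 0.21 (adjusted p = 0.765) and 0.24 ± 0.20 (adjusted p = 0.442), with overlapping arrays. Krt2 was not called when the final letter in each array's name entered the fit as a block (the letter block).

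Barrier lipids gave 4 rises and 15 falls of 33, with a median difference of -0.84. After quantile normalization 9 fell. Abca12, which loads glucosylceramide into lamellar bodies, stood at 7.63, 7.52 and 8.10 on the SG arrays and 10.73, 10.99 and 10.67 on the IFE arrays (-3.05 ± 0.22, adjusted p = 5.97e-06), with all 58 of its 58 probe sets lower on every SG array. The lipoxygenases Alox12b and Aloxe3, which act in turn on linoleate esterified in ceramide, fell by 2.96 ± 0.26 (adjusted p = 2.24e-05) and 2.70 ± 0.21 (adjusted p = 9.08e-06) on the log2 scale. Sgms1 makes sphingomyelin, and it was at -1.47 ± 0.17 (adjusted p = 0.000134), while Sgms2, its relative, was at 1.13 ± 0.24 (adjusted p = 0.00577). With SG replicate 1 or 2 or IFE replicate 2 left out, 2 genes rose instead of 4. Fa2h was called without each array. Sgms2 was not called without SG replicate 3. Alox12b, Sgms1 and Sgms2 were not called with the brightest probe set.

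Proteases and their inhibitors of the shedding epidermis moved both ways. Of 22 skin serpins 1 rose and 8 fell, and of 32 kallikreins, other proteases and inhibitors 4 rose and 11 fell. Spink12, an inhibitor of kallikreins, stood at 8.18, 8.17 and 8.40 on the SG arrays and 5.21, 5.67 and 5.55 on the IFE arrays (2.77 ± 0.19, adjusted p = 5.1e-06), and cystatin M, Cst6, at 12.39, 12.51 and 12.74 on the SG arrays and 10.61, 11.04 and 11.22 on the IFE arrays (1.60 ± 0.21, adjusted p = 0.000318). Both were at least as high in HF, at 8.98 ± 0.26 and 12.7 ± 0.27. The kallikrein Klk9 fell, at 7.16, 6.91 and 6.78 on the SG arrays and 9.14, 9.39 and 9.24 on the IFE arrays (-2.31 ± 0.17, adjusted p = 7.78e-06). Klk10 rose by 1.76 ± 0.29 (adjusted p = 0.00138) and Klk7 fell by 2.02 ± 0.29 on the log2 scale (adjusted p = 0.000546), and neither was called with the brightest probe set. Klk10 was higher in HF than in SG, at 10.54 ± 0.28 (SG minus HF -1.55 ± 0.29, adjusted p = 0.00605). Asprv1, which processes filaggrin, stood at 8.43, 8.80 and 8.45 on the SG arrays and 10.67, 10.64 and 10.75 on the IFE arrays (-2.13 ± 0.17, adjusted p = 1.19e-05), and Wfdc5 at -2.75 ± 0.26 (adjusted p = 3.57e-05).

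Nucleases clear DNA and RNA from dying keratinocytes, and sebocytes also lose their nuclei. Of 23 nucleases and lysosomal death genes 7 fell and 0 rose in limma's fit. At an unadjusted p under 0.05, 13 lay lower and 1 higher. With the letter block 4 fell. Dnase1l3 stood at 5.95, 5.83 and 5.995 on the SG arrays and 8.55, 8.82 and 8.36 on the IFE arrays (-2.65 ± 0.18, adjusted p = 4.36e-06) and Trex2, an exonuclease of keratinocytes, at 7.63, 7.23 and 7.78 on the SG arrays and 9.90, 9.43 and 9.86 on the IFE arrays (-2.19 ± 0.19, adjusted p = 2.39e-05). The RNA-cutting enzyme Endou stood at 8.65, 8.96 and 10.36 on the SG arrays and 11.29, 12.25 and 11.80 on the IFE arrays (-2.46 ± 0.39, adjusted p = 0.00098). SG replicate 3 was the highest SG array for all 3 of these genes.

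Of 28 genes of adherens, tight and gap junctions 11 fell and 0 rose in limma's fit, with a median difference of -0.83. At an unadjusted p under 0.05, 19 lay lower and 0 higher. Tjp1, the tight junction scaffold, stood at 8.64, 8.77 and 9.26 on the SG arrays and 10.54, 10.96 and 10.76 on the IFE arrays (-1.87 ± 0.20, adjusted p = 9.53e-05), with 30 of 32 probe sets lower on every SG array. E-cadherin, Cdh1, fell by 1.44 ± 0.16 on the log2 scale (adjusted p = 0.000102), and the connexin Gjb5 by 1.56 ± 0.19 (adjusted p = 0.000203). Of 14 desmosome genes 2 rose and 5 fell. The rise of Dsg4, a desmoglein of the hair shaft (2.22 ± 0.73, adjusted p = 0.0477), was not called with the letter block, with trend and robust eBayes, in the fit of 6 arrays or without any 1 of the IFE arrays. Dsg4 stood at 6.39, 6.49 and 10.04 on the SG arrays, 5.735, 5.33 and 5.19 on the IFE arrays and 11.38, 10.84 and 11.52 in HF. It was thus highest in SG on replicate 3 and lower in SG than in HF (-3.61 ± 0.73, adjusted p = 0.00857). Dsc1, the desmocollin of upper layers, stood at 10.64, 10.26 and 10.74 on the SG arrays and 12.47, 12.79 and 12.65 on the IFE arrays, and plakoglobin, Jup, lay at -1.32 ± 0.20 (adjusted p = 0.000747). The plakophilins split: Pkp1 of suprabasal desmosomes stood at 10.17, 9.91 and 10.48 on the SG arrays and 11.55, 11.64 and 11.72 on the IFE arrays (-1.45 ± 0.20, adjusted p = 0.000377), and Pkp2, common in simple epithelia, at 7.39, 7.75 and 7.58 on the SG arrays and 5.72, 6.14 and 5.99 on the IFE arrays (1.62 ± 0.18, adjusted p = 0.000104). Pkp2 was about as high in HF, at 7.60 ± 0.13.

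Among interleukin 1 family members, cytokines and alarmins 0 of 35 rose and 10 fell in limma's fit (4 higher and 15 lower at an unadjusted p under 0.05). The count of falls was 5 after quantile normalization and 6 with the letter block or without IFE replicate 2, and 1 gene rose without SG replicate 2, IFE replicate 1 or IFE replicate 2. Il1a, a stored alarmin of keratinocytes, stood at 5.85, 6.20 and 6.43 on the SG arrays and 9.05, 9.30 and 8.21 on the IFE arrays (-2.69 ± 0.26, adjusted p = 4.66e-05), and Il1f5, the interleukin 36 receptor antagonist gene, at 7.99, 7.71 and 7.73 on the SG arrays and 9.71, 9.97 and 9.89 on the IFE arrays (-2.05 ± 0.23, adjusted p = 0.00012). Il1rn, the interleukin 1 receptor antagonist, was at -1.06 ± 0.18 (adjusted p = 0.00153), a call that ended after quantile normalization and without SG replicate 1 or IFE replicate 2. Of 32 antimicrobial and innate genes 2 rose (1 without IFE replicate 1 or 3) and 6 fell, with Defb6 the largest rise and Pglyrp4, a bactericidal peptidoglycan binder, at -1.90 ± 0.23 (adjusted p = 0.000214). The innate sensor Nod1 lay at -1.37 ± 0.20 (adjusted p = 0.000669). Of 22 interferon response genes 0 were called in limma's fit, 3 had an unadjusted p under 0.05, and the median difference was 0.16. There was 1 rise without SG replicate 1 and 1 fall without SG replicate 3.

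Ligands of the epidermal growth factor family changed in opposite directions. Nrg4, a neuregulin that binds ERBB4, was 7.17-fold higher in SG, at 9.07, 8.88 and 8.77 on the SG arrays and 5.41, 6.59 and 6.20 on the IFE arrays (2.84 ± 0.32, adjusted p = 0.000133), and also higher than in HF, at 6.30 ± 0.60 (2.60 ± 0.32, adjusted p = 0.000681). Ereg, epiregulin, stood at 7.08, 6.42 and 7.05 on the SG arrays and 10.72, 10.88 and 9.25 on the IFE arrays (-3.43 ± 0.36, adjusted p = 7.71e-05), and epigen, Epgn, at 6.26, 5.87 and 7.32 on the SG arrays and 9.78, 9.47 and 7.61 on the IFE arrays (-2.47 ± 0.49, adjusted p = 0.00413). Btc, betacellulin, lay at -1.83 ± 0.21 (adjusted p = 0.000153). In all, 2 of 15 genes of the family rose and 5 fell. The receptors lay just under the threshold: Egfr at -0.92 ± 0.20 (adjusted p = 0.006), Erbb2 at -0.93 ± 0.15 (adjusted p = 0.00126) and Erbb3 at -0.85 ± 0.17 (adjusted p = 0.00344), each with all SG arrays below all IFE arrays, as for 21.7% of all genes, and Egfr was called without SG replicate 3 or IFE replicate 1. Of the inhibitors, Lrig1, which marks stem cells of the upper follicle, rose by 1.23 ± 0.22 (adjusted p = 0.00196) and Errfi1 fell by 1.72 ± 0.32 on the log2 scale (adjusted p = 0.00285).

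Of 46 epidermal and sebaceous transcription factors 2 rose and 12 fell, and after quantile normalization 5 rose and 7 fell. Grhl3, a driver of barrier formation, stood at 8.31, 7.93 and 8.70 on the SG arrays and 10.67, 10.97 and 10.65 on the IFE arrays (-2.45 ± 0.21, adjusted p = 1.64e-05). Klf3 (-2.11 ± 0.18, adjusted p = 1.71e-05), Klf4, needed for the barrier (2.83-fold lower, adjusted p = 0.000266), Pou2f3 (-1.44 ± 0.18, adjusted p = 0.00021) and the ETS factor Ehf (-1.77 ± 0.24, adjusted p = 0.000398) also fell. Tbx1 rose, at 8.31, 8.48 and 8.48 on the SG arrays and 6.85, 7.07 and 6.63 on the IFE arrays (1.57 ± 0.17, adjusted p = 8.44e-05). It was about as high in HF, at 8.29 ± 0.07. Within the AP-2 family Tfap2b was at 1.36 ± 0.24 (adjusted p = 0.0022) and Tfap2c at -1.17 ± 0.19 (adjusted p = 0.00132). Tfap2b was not called with the brightest probe set, nor Tfap2c after quantile normalization. Prdm1 and Gata6, regulators discussed for the gland and its duct, did not reach the threshold, at -0.64 ± 0.20 (adjusted p = 0.0394) and 0.69 ± 0.18 (adjusted p = 0.0163).

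Of 18 circadian genes 1 rose and 6 fell, and 3 fell after quantile normalization. The related repressors Bhlhe41 and Bhlhe40 split, with Bhlhe41 at 8.49, 9.73 and 8.04 on the SG arrays and 6.09, 7.20 and 7.52 on the IFE arrays (1.82 ± 0.41, adjusted p = 0.00844) and Bhlhe40 at 6.75, 7.57 and 7.92 on the SG arrays and 9.38, 9.76 and 9.31 on the IFE arrays (-2.07 ± 0.27, adjusted p = 0.000283). Hlf, an output factor, fell by 1.82 ± 0.21 on the log2 scale (adjusted p = 0.000159), while the oscillator genes Per2 and Arntl were at -0.03 ± 0.16 (adjusted p = 0.927) and -0.78 ± 0.27 (adjusted p = 0.0619), the second called without SG replicate 3 or IFE replicate 1. Of 31 immediate early genes 17 fell and 1 rose, and 10 fell and 2 rose after quantile normalization. Without SG replicate 2 or IFE replicate 2, 2 rose. Btg2, an antiproliferative gene, stood at 8.71, 8.56 and 8.50 on the SG arrays and 11.09, 11.18 and 10.58 on the IFE arrays. Zfp36, which destabilises cytokine mRNAs, stood at 8.45, 8.20 and 8.69 on the SG arrays and 11.13, 11.11 and 10.43 on the IFE arrays. Fos, of AP-1, stood at 7.32, 7.64 and 7.67 on the SG arrays and 9.96, 9.63 and 8.65 on the IFE arrays (-1.87 ± 0.30, adjusted p = 0.00119). IFE replicate 3 was the lowest IFE array for all 3. These genes also respond to dissection, and the part of handling in their difference was not tested. Among 22 heat shock genes Cryab, a small chaperone, rose by 1.64 ± 0.19 (adjusted p = 0.00013) and 3 fell, among them Hspb8, at 7.69, 8.83 and 9.98 on the SG arrays and 11.06, 10.89 and 10.88 on the IFE arrays (-2.11 ± 0.41, adjusted p = 0.00369). Of 41 cell cycle genes 2 fell and 0 rose in limma's fit, and at an unadjusted p under 0.05, 9 lay lower and 1 higher. Over all genes 6.96% fell and 2.54% rose. Cdk6, a driver of entry into the cycle, was at 7.95, 7.91 and 7.98 on the SG arrays and 10.38, 10.28 and 9.96 on the IFE arrays (-2.26 ± 0.22, adjusted p = 5.26e-05). Top2a, a topoisomerase of dividing cells (-1.07 ± 0.31, adjusted p = 0.0263), was not called after quantile normalization or without any of SG replicates 1 and 2 and IFE replicates 2 and 3. Without SG replicate 3 there were 5 falls.

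Wnt, FGF, BMP and Notch signals act in the upkeep of skin and its appendages. Of 50 Wnt genes 4 rose and 3 fell, against 2.54% and 6.96% of all genes, and 1 fell with the letter block or without IFE replicate 2 or 3. The receptors Fzd3 and Fzd4 rose, Fzd3 at 8.64, 8.00 and 8.44 on the SG arrays and 6.15, 6.37 and 6.29 on the IFE arrays (2.09 ± 0.19, adjusted p = 2.89e-05) and Fzd4 by 1.40 ± 0.21 (adjusted p = 0.000797), and Dkkl1, a relative of the Dickkopf inhibitors, fell by 1.97 ± 0.35 on the log2 scale (adjusted p = 0.00194). Fzd3 and Fzd4 lay at 8.90 ± 0.14 and 6.87 ± 0.18 in HF, and neither passed the threshold between SG and HF. Of 23 FGF genes Fgf18 and Fgfr1 rose and Fgfr2 fell. Fgfr1 stood at 7.91, 8.40 and 7.94 on the SG arrays and 6.88, 7.20 and 6.98 on the IFE arrays (1.06 ± 0.18, adjusted p = 0.00154) and Fgfr2, the receptor of epithelia, at 7.83, 7.54 and 8.30 on the SG arrays and 9.19, 9.42 and 9.69 on the IFE arrays (-1.54 ± 0.22, adjusted p = 0.00058). Fgfr1 was not called without SG replicate 2 or IFE replicate 1, and without SG replicate 3 the list held 4 rises, and without SG replicate 2 or IFE replicate 1 it held 2 falls. Of 39 BMP and TGF-beta genes 4 rose and 3 fell, with 1 rise left without SG replicate 2, 2 without IFE replicate 1 or IFE replicate 2, and 7 falls without SG replicate 3. With the mean of probe sets 1 of them rose and 1 fell. In the Notch list 0 of 23 rose and 2 fell in limma's fit (4 higher and 6 lower at an unadjusted p under 0.05), Notch2 (-1.30 ± 0.17, adjusted p = 0.000277) and Hes1 (-1.03 ± 0.26, adjusted p = 0.0157), and neither was called after quantile normalization, nor Hes1 without SG replicate 2 or IFE replicate 2. Of 15 Hedgehog genes the inhibitor Hhip fell (-1.97 ± 0.25, adjusted p = 0.000232), and the target Ptch1 was at 0.23 ± 0.23 (adjusted p = 0.527). Of 28 Hox genes Hoxc8 rose (1.14 ± 0.32, adjusted p = 0.0226) and Hoxc13 fell (-1.60 ± 0.40, adjusted p = 0.0144). The call of Hoxc8 was lost without SG replicate 2 or any 1 of the IFE arrays, and that of Hoxc13 without SG replicate 1 or 2 or IFE replicate 2. There were 2 rises without SG replicate 1.

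Among carriers and channels of ions and solutes 5 of 50 rose and 12 fell, with 7 falls after quantile normalization or with the letter block. Car8, a carbonic anhydrase relative without enzyme activity, stood at 7.84, 8.20 and 7.70 on the SG arrays and 6.11, 5.55 and 5.49 on the IFE arrays (2.19 ± 0.21, adjusted p = 4.66e-05). Aqp9, a channel for water and glycerol, stood at 8.07, 7.84 and 8.02 on the SG arrays and 10.09, 10.14 and 10.42 on the IFE arrays (-2.24 ± 0.20, adjusted p = 2.48e-05). The amino acid carrier Slc6a14 (-2.44 ± 0.24, adjusted p = 5.09e-05) and the calcium channel Trpv6 (-1.69 ± 0.26, adjusted p = 0.000838) fell. Of 12 S100 genes 4 rose and 0 fell, led by S100a1 at 9.40, 9.57 and 10.01 on the SG arrays and 6.60, 7.14 and 7.12 on the IFE arrays (2.71 ± 0.21, adjusted p = 9.94e-06), and 2 rose without IFE replicate 1, while 1 fell without SG replicate 3. With the mean of probe sets 1 of them rose, and with the brightest probe set 2 rose. At an unadjusted p under 0.05, 6 lay higher and 1 lower. S100a1 was about as high in HF, at 9.50 ± 0.14.

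Genes of follicle stem cell regions and of the junction between follicle and gland were higher in SG than in IFE: 11 of 23 rose and 0 fell in limma's fit, with a median difference of 0.85. At an unadjusted p under 0.05, 17 lay higher and 2 lower. The mean of the list was 8.99, 8.93 and 8.97 in SG, 7.68, 7.78 and 7.82 in IFE and 9.05 to 9.21 in HF. Lhx2, a stem cell transcription factor, stood at 8.75, 8.23 and 8.56 on the SG arrays and 6.67, 6.53 and 6.63 on the IFE arrays (1.90 ± 0.20, adjusted p = 7.97e-05), against 8.80 ± 0.31 in HF. Fgf18, a ligand of resting follicles, stood at 9.94, 10.01 and 8.77 on the SG arrays and 6.27, 6.63 and 6.39 on the IFE arrays (3.14 ± 0.30, adjusted p = 3.57e-05). Fgf18 was not called with the brightest probe set. SG replicate 3 did not stand above the other SG arrays in this list. Without IFE replicate 3, 1 gene of it fell.

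Hair shaft and inner root sheath genes did stand out on that array. Of 22 measured 5 rose and 5 fell, with a median difference of 0.97. Without SG replicate 3 the median was 0.31, with 5 rises and 7 falls. Krt25, an inner root sheath keratin, stood at 7.93, 8.20 and 11.60 on the SG arrays and 6.51, 6.05 and 5.96 on the IFE arrays and at 13.35, 12.26 and 13.35 in HF, and Krt71 at 8.09, 8.62 and 11.20 on the SG arrays and 7.07, 6.62 and 6.38 on the IFE arrays. SG replicates 1 and 2 still lay above the IFE arrays for both. The counts also moved without other arrays, to 8 rises and 2 falls without SG replicate 1, to 2 falls without SG replicate 2 or IFE replicate 2, and to 3 falls without IFE replicate 3. Krt84 leads the falls and is a scale keratin as well. In pooled tissue fewer cells of a type and less RNA per cell cannot be told apart, here or in the lists above.

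Of 11 marker lists of other cell types 4 held 0 called genes in limma's fit: Langerhans cell, endothelium and pericyte, smooth and skeletal muscle, and red blood cell. At an unadjusted p under 0.05 they held 4 of 16, 3 of 15, 2 of 13 and 0 of 2 genes. The mean level of the Langerhans cell list was 7.34 to 7.48 in SG and 7.05 to 7.31 in IFE, that of the endothelial list 6.84 to 6.98 and 6.67 to 6.78, and that of the muscle list 6.81 to 6.99 and 6.88 to 6.93. The T cell list lay at 6.66 to 6.76 and 6.37 to 6.43, and the adipocyte list, which shares genes with the lipid lists, at 7.03 to 7.32 and 6.43 to 6.72. The melanocyte list lay at 6.85, 7.26 and 7.57 on the SG arrays and 6.57, 6.64 and 6.91 on the IFE arrays. The fibroblast list lay at 7.446, 7.66 and 7.95 on the SG arrays and 7.21, 7.29 and 7.447 on the IFE arrays. Both were highest on SG replicate 3. The Langerhans cell markers Cd207 and Cd74 were at -0.47 ± 0.21 (adjusted p = 0.14) and 0.29 ± 0.27 (adjusted p = 0.489), and the endothelial markers Pecam1 and Cdh5 at 0.20 and 0.03. The muscle marker Acta2 lay at 0.74 ± 0.19 (adjusted p = 0.018), under the size threshold, with all SG arrays above all IFE arrays, as for 13.2% of all genes. Myh11 lay at -0.06 ± 0.16 (adjusted p = 0.822), but its brightest probe set was 2.85 higher in SG and was called (adjusted p = 0.000255). The T cell marker Cd3e was at 0.61 ± 0.24 (adjusted p = 0.0919), and Gzma, a granzyme, was the single rise of 14 T cell genes (1.15 ± 0.28, adjusted p = 0.0134), not called without SG replicate 1 or IFE replicate 2. Of melanocyte markers, Dct stood at 7.64, 9.23 and 9.74 on the SG arrays and 7.43, 7.77 and 8.21 on the IFE arrays (adjusted p = 0.0909; called without SG replicate 1 or after quantile normalization) and Tyr at 0.53 ± 0.24 (adjusted p = 0.134), and Pmel was the single rise of 13, not called without SG replicate 2 or 3 or IFE replicate 1 or 2. The fibroblast collagens Col1a1 and Col1a2 were at 0.04 and 0.22, and Fn1 was the single rise of 15, at 6.19, 6.28 and 7.63 on the SG arrays and 5.82, 5.26 and 5.55 on the IFE arrays, not called without SG replicate 3 or IFE replicate 2 or 3. Fn1 was higher in HF, at 8.09 ± 0.29 (SG minus HF -1.39 ± 0.34, adjusted p = 0.0224). The adipocyte markers Adipoq and Plin1 were at 0.66 ± 0.23 (adjusted p = 0.0634) and 0.11 ± 0.19 (adjusted p = 0.724), beside the rises of Lpl and Fabp4 and the fall of the lipase Lipe (-1.14 ± 0.24, adjusted p = 0.00547), which was not called without SG replicate 3. Of 9 Merkel cell and nerve genes Sox2 (1.04 ± 0.18, adjusted p = 0.00177) and S100b (1.02 ± 0.17, adjusted p = 0.00145) rose and the myelin gene Mbp fell (-1.26 ± 0.17, adjusted p = 0.000408), while Krt20 of Merkel cells was at 0.55. Of 13 dermal papilla genes Sox2, which both lists hold, and Lef1 (1.55 ± 0.33, adjusted p = 0.0059) rose and Hhip fell, and 2 fell without SG replicate 3. Neither Sox2 nor S100b was called without SG replicate 1 or IFE replicate 2, nor Sox2 without IFE replicate 1. The Merkel cell and nerve list lay at 7.287 to 7.57 in SG and 7.22 to 7.295 in IFE, and the dermal papilla list at 6.62 to 6.95 and 6.63 to 6.76. Without SG replicate 1 there were 3 rises each among melanocyte and fibroblast genes, and without SG replicate 2 there were 2 among T cell genes. Mrc1 of macrophages was at -0.18, and Cd68, a lysosomal gene of macrophages, fell by 1.74 ± 0.26 on the log2 scale (adjusted p = 0.000655). This scale has no level that marks an absent gene, and signal over background is unknown, so these levels do not show whether a cell type was present. The part of other cell types in the results above was not tested.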

How the data were processed

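Microarray signals of 9 samples of mouse tail epidermis were used, 3 each of SG, IFE and HF, grouped by sample title. The authors deposited a table of probe set intensity values on a linear scale, and the submitters' processing notes name RMA, Affymetrix Power Tools and mm9 without versions or roles. Which filter left its 154736 probe sets is not given in the sources used here. Detection calls were not used here, which leaves each gene's signal over background unknown, and the number of arrays limits the precision. Values were put on the log2 scale without a pseudocount. Probe sets with 1 symbol in the platform annotation (146964) were kept, those with several (1060) or none (6712) were not, and a gene's value was the median over its probe sets (median 8 per gene, 911 genes on 1). Symbols were updated for 1754 genes through RefSeq. limma 3.58.1 in R 4.3.3 fitted the 9 arrays together, with 1 mean per compartment, then eBayes, on the contrast SG minus IFE, and was tested on simulated data. Genes named were the 15 largest rises and falls with at least 3 probe sets and no overlap, up to 5 called members per list by smallest p, up to 3 that went the other way, opposed relatives, defining markers of other cell types, and pathway steps given by value. Gene models, olfactory and immunoglobulin genes were not named. The members and the lists were chosen with earlier results of these data known. Lists were described by counts and medians, with no list test. The alternatives were 2 blocks, 2 scalings, 3 probe set summaries, a filter on dim genes, a pseudocount of 16, 2 eBayes settings, a fit of 6 arrays, 2 further log2 thresholds, and the fit without each array in turn.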

Additional observations from a re-analysis of the deposited data

How the results depend on the processing

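The 1377 changed genes numbered 1028 to 1714 under the alternatives other than leaving out an array. The counts of rises moved by over 1.5 times to 609 with quantile normalization, to 645 with median centring, to 591 with the brightest probe set and to 194 without the dimmer 50% of genes, and those of falls to 476 and 572 with the first 2 of these. A log2 threshold of 0.58 gave 2992 changed genes, 798 higher and 2194 lower, and a threshold of 2 gave 226, 93 higher and 133 lower. Leaving out each array in turn gave 1146 to 1752 changed genes, 346 to 410 rises and 800 to 1387 falls. The median difference of all genes, -0.06 as deposited, ran from -0.27 without the dimmer 50% of genes to 0.18 after median centring. In these 2 fits 18.9% and 53% of the changed genes were higher in SG, against 26.7% as deposited.

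The replicate numbers are shared by the groups. Deviations from the group means of same-numbered SG and IFE arrays correlated at 0.138, -0.0188 and 0.096 for the numbers 1, 2 and 3. Pairs with unlike numbers ran from -0.155 to 0.110. With 3 arrays per group these values cannot show whether same-numbered samples share more than a number. With the replicate block 1398 genes were called, 380 higher and 1018 lower, against 1377 without it. With the letter block 1157 were called, 414 higher and 743 lower.

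With the brightest probe set the sign turned for 4 genes named here: Acaca (0.54 instead of -1.18), Jun (0.0145 instead of -1.71), Serpinb7 (0.20 instead of -3.51) and Myh11 (2.85 instead of -0.06). The cause was not tested. In all, 82 of the 1009 falls and 17 of the 368 rises turned sign with it. Of 179 called genes that are named, it also ended the calls of 31: Acacb, Acox2, Acsm3, Agps, Alox12b, Atp5c1, Awat2, Btc, Cd68, Cidea, Fasn, Fgf18, Gzma, Hes1, Hhip, Hoxc13, Klk10, Klk7, Lce1l, Lef1, Lipe, Lpl, Mbp, Msmo1, Nectin3, Pfkp, Rdh12, S100b, Sgms1, Sgms2 and Tfap2b. Quantile normalization ended 14, those of Abhd5, Acaca, Agps, Elovl1, Elovl5, Hes1, Il1rn, Lipe, Mbp, Notch2, Pfkp, Rdh12, Tfap2c and Top2a. The letter block ended 15, those of Acaca, Agps, Dsg4, Elovl5, Fabp4, Fasn, Fn1, Gzma, Hoxc8, Il1rn, Krt2, Msmo1, Ppara, Rdh11 and Top2a. The mean of probe sets ended 16 calls of named genes. The replicate block ended 0 calls of named genes in limma's fit, as did the filter to genes with at least 3 probe sets among the genes it kept. Of 104 counts of rises or falls in the gene and marker lists, 40 moved by over 1.5 times with the brightest probe set, 31 with quantile normalization, 25 with the letter block, 23 with median centring, 19 without the dimmer 50% of genes, 18 with the mean of probe sets, 2 with the replicate block and 11 to 18 when 1 array was left out. The number of arrays limits what can be called, and the signal over background of dim genes is unknown.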
